A study of Mus musculus with 2 samples.

Results

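Solute carriers are the membrane proteins, named with the prefix Slc, that move small molecules across the plasma membrane, organelle membranes and the inner mitochondrial membrane. The gene list of the deposited matrices held 387 Slc symbols, and 150 of them had at least 50 unique molecular identifiers (UMIs, each counting 1 captured transcript) over the cells of both libraries and form the set described here. Another 144 had no UMI in either library and 90 had 1 to 49. A further 3 (Slc2a1, Slc2a3 and Slc16a3, glucose and lactate carriers) passed the minimum and were left out by the rule. Members were chosen by their summed UMI count over both libraries, so a gene present in only 1 tissue had to be abundant there to enter: 2 members had fewer than 20 UMIs in tumour and 5 had fewer than 20 in lymph node. The members nearest the minimum were Slc15a2 with 55 UMIs and Slc25a29 with 56, and the nearest symbols below it were Slc12a8 with 47 and Slc11a1 with 46.

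Solute carriers work as uniporters, as symporters that couple uptake to the sodium or proton gradient, and as antiporters that exchange 1 solute for another. Dividing lymphocytes are known for bringing in neutral amino acids through Slc1a5 and through CD98, a dimer of the heavy chain Slc3a2 with a light chain such as Slc7a5, and for moving lactate through Slc16a1. Most of the Slc25 family sits in the inner mitochondrial membrane, where Slc25a4 and Slc25a5 exchange ADP for ATP and Slc25a3 brings in phosphate. All Slc25 symbols are classed below as mitochondrial carriers.

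The data came from droplet sequencing (10x Chromium, 3' end) of cells sorted from Foxp3Cre-YFP mice, in which the Foxp3 locus of regulatory T cells drives Cre recombinase and a yellow fluorescent protein. The 2 groups were B16 tumour, a mouse melanoma, at day 14, and lymph node of unchallenged mice, and both came from C57BL/6 mice of 5 to 8 weeks. Each group was 1 library, so no test between tissues was made, and every interval given is a 95% interval for counting error alone. The sort gate and the number of mice in a library are not stated in the sources used here.

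After filtering, 1457 tumour cells and 2202 lymph node cells remained, with 16669263 and 10681101 UMIs, or 70.6% and 76.3% of their libraries. The median cell held 8766 UMIs in tumour and 4100 in lymph node, and 1 cell barcode occurred in both libraries. Levels are UMIs summed over the cells of a library scaled as CPM, relative to all UMIs of those cells. The 3' method counts a captured transcript once whatever its length. How fully each gene is captured was not measured, so ranks of different genes by CPM are ranks of captured UMIs. Summed counts weigh deep cells more, and in them fewer expressing cells and less RNA per cell cannot be told apart. Cd3e of the T cell receptor complex stood at 552 CPM in tumour and 534 in lymph node. Ikzf2 of regulatory T cells stood at 1038 and 725 CPM, and Foxp3 at 17.2 and 21.9 CPM. Of the CD8 genes, Cd8a had no UMI in either library, while Cd8b1 stood at 19.5 CPM in tumour and 17.6 CPM in lymph node. Tumour cells carried the 5 melanoma markers at a summed 32.9 CPM and the 6 macrophage and monocyte markers at 8.64 CPM, against 0.0936 and 2.06 CPM in lymph node. The 15 mitotic markers summed to 1718 CPM in tumour cells and 383 CPM in lymph node cells.

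Promoter sequence was at hand in RefSeq (GRCm38.p6) for 114 of the members, as 153 windows reaching from 250 bases before to 50 bases after an annotated start. Shown are the CD98 heavy chain and the lactate carrier Slc16a1, which T cells are known for, Slc25a5, the most abundant member, and Slc22a2, the member with the lowest tumour to lymph node ratio. Capitals mark the letters CACGTG (an E-box), ACGTG and GCGTG (cores of hypoxia response elements) on either strand, so that CACGT and CACGC are the reverse strand forms, and every CACGTG also holds ACGTG on both strands.
Slc3a2 promoter, chr19:8713848-8714147, minus strand: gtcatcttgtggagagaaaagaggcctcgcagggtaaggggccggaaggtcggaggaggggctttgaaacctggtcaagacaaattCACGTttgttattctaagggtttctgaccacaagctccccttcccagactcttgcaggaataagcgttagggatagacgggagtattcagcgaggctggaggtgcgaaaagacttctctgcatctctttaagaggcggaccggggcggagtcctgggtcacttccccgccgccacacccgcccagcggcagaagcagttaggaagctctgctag
Slc16a1 promoter, chr3:104638414-104638713, plus strand: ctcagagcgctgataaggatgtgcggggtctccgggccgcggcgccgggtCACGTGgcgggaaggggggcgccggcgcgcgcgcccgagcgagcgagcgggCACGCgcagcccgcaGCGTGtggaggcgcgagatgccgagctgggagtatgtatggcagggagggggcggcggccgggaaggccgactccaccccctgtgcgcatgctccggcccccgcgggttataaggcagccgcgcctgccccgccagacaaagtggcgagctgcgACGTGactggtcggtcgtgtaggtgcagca
Slc25a5 promoter, chrX:36795347-36795646, plus strand: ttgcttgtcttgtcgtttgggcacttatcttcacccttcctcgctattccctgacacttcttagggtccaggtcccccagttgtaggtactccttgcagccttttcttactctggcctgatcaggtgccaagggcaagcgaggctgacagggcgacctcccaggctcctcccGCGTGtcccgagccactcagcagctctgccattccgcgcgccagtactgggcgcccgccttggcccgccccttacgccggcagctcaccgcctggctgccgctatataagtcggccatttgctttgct
Slc22a2 promoter, chr17:12583939-12584238, plus strand: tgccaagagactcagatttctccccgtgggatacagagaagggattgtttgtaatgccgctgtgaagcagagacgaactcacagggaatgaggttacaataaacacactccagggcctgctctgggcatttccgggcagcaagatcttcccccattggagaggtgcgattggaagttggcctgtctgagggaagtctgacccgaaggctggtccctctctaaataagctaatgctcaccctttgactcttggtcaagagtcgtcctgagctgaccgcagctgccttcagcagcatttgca
The Slc16a1 window held 1 CACGTG, 1 separate ACGTG and 2 GCGTG, the Slc3a2 window 1 ACGTG and the Slc25a5 window 1 GCGTG, and none of these letters stood in the Slc22a2 window. CACGTG was found in 15% of the member windows and in 7.15% of 32851 windows of all genes, ACGTG in 27.5% and 19.6%, and GCGTG in 51% and 32.4%. TGATGNAA, the composite element of ATF4 with C/EBP, was found in 1.31% of member windows and 3.97% of all. The member windows were also richer in G and C, with a median of 61% against 52.7% over all windows, and closer to the CpG count that their base composition predicts, at a median of 0.67 against 0.38 of it. Base composition and motif shares move together here and were not tested apart. A match describes letters only.

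Across the 150 members most ratios were modest. Of these, 20 were at least 2-fold higher in tumour (13.3%), while 13.2% of all 9976 genes with at least 50 UMIs were. A further 6 were at least 2-fold lower (4.0%, against 7.70% of all genes), and 124 lay between. With the whole interval beyond 2-fold, 14 members were higher (8.80% of all genes) and 4 lower (4.17% of all genes). The share of members higher in tumour was close to that of genes at large, and the median log2 ratio of tumour over lymph node was 0.20 over members and 0.14 over all those genes. The interval included equality for 69 members, lay above it for 55 and below it for 26. This split was not computed over all genes, whose median also lay on the tumour side, so it does not set members apart. Of the 26 members at least 2-fold apart, 9 came within 2-fold under at least 1 other choice of cells or scaling, among them Slc38a6, Slc27a1, Slc44a1, Slc12a7, Slc16a6, Slc25a51, Slc39a4 and Slc8b1.

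**Figure D1:**
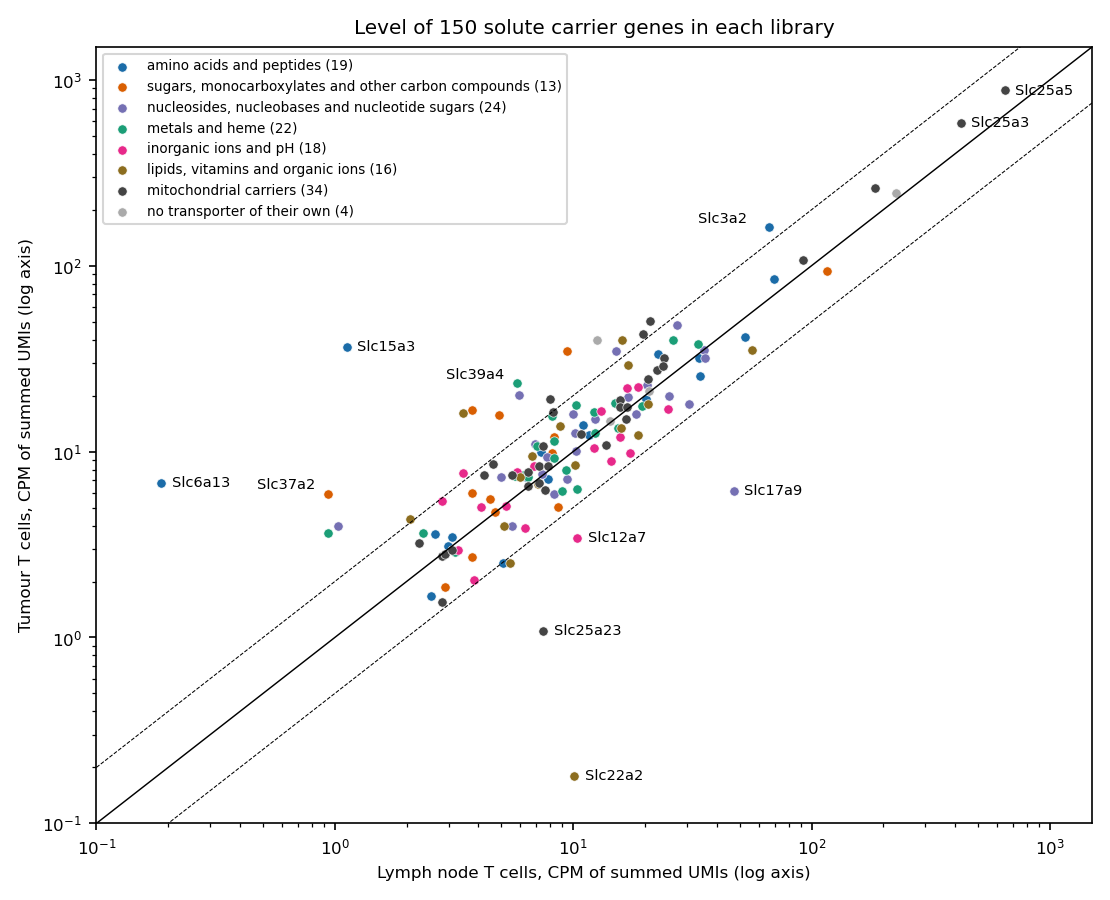
Level of each of the 150 members in tumour and lymph node cells (CPM, log axes), 1 point a gene, with lines of equality and of 2-fold difference. Most points lie near the line of equality, Slc25a5 (877 and 646 CPM) at the top, and Slc15a3, Slc6a13 and Slc22a2 far from it.

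The summed level of all members was 4372 CPM in tumour and 3487 CPM in lymph node, a ratio of 1.25 (interval 1.24 to 1.27). Slc25a5, Slc25a3 and Slc25a4 held 39.4% of the member UMIs in tumour and 35.9% in lymph node. Without these 3 carriers the sums were 2649 CPM in tumour and 2234 CPM in lymph node. The remaining members were thin: the median member stood at 10.8 CPM in tumour and 8.71 CPM in lymph node. With every cell thinned to the same depth, that of the lymph node minimum, a tumour cell held a median of 8 member UMIs from 6 members and a lymph node cell 6 UMIs from 5 members. Single cells at this depth therefore show few of the 150 transcripts, and the values below are sums over cells. Exons of 31 members overlap those of another counted gene, 4 of them on the same strand (Slc5a3, Slc35a3 and Slc10a3 among them), and whether counting used the strand is not stated in the sources used here, so reads of such pairs cannot be told apart.

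**Figure D2:**
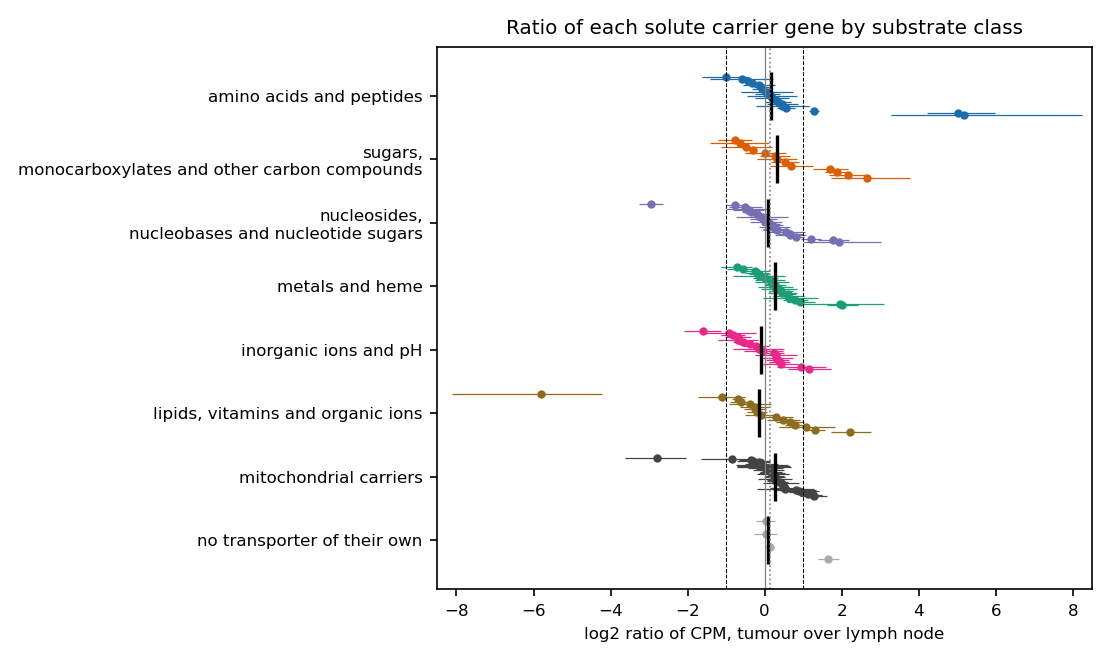
Log2 ratio of tumour over lymph node for every member, by substrate class, with 95% counting intervals as horizontal lines, black bars at the class medians, a dotted line at the median of all genes (0.14) and dashed lines at 2-fold. Class medians run from -0.14 (lipids, vitamins and organic ions) to 0.31 (sugars, monocarboxylates and other carbon compounds).

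Genes named here outside the naming rule given with the methods, mostly relatives of those within it, were chosen after their values were seen. Among the 19 carriers of amino acids and peptides, tumour exceeded lymph node by 2-fold or more for Slc3a2, Slc15a3 and Slc6a13, Slc38a6 was at least 2-fold lower and 15 lay between, with a median log2 ratio of 0.17 that was -0.10 without mitotic cells. Slc3a2, the CD98 heavy chain (chr19:8706882-8723369, minus strand, GRCm38), was the most abundant of the class in tumour, with 2683 UMIs or 161 CPM in tumour and 707 UMIs or 66.2 CPM in lymph node. Its ratio was 2.43 (interval 2.24 to 2.65), and at equal depth a UMI was found in 27.4% of tumour cells and 11.6% of lymph node cells. For comparison, Tyrp1, a melanoma gene that T cells should lack, was found in 2.75% of the thinned tumour cells and 0% of the lymph node cells. In free RNA, measured in barcodes with 1 to 100 UMIs, Slc3a2 stood at 130 CPM in tumour and 63.6 CPM in lymph node.

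The measured light chains stood near equality. Slc7a5, which carries leucine and other large neutral amino acids, stood at 12.3 CPM in tumour and 11.7 CPM in lymph node, a ratio of 1.05 (0.837 to 1.32). Slc7a6, the light chain for cationic and neutral amino acids, stood at 7.26 CPM in tumour and 6.37 CPM in lymph node, with an interval that also included equality. The Slc7a5 ratio depended on which cells were summed. Its log2 ratio was 0.07 over all cells, -1.14 without mitotic cells and 1.07 in the 244 tumour and 211 lymph node cells with a Foxp3 UMI. The last value rests on few cells, and no interval was computed for it. Slc7a11, the cystine carrier that also pairs with CD98, did not reach 50 UMIs.

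Slc15a3, a proton-coupled exporter of histidine and small peptides from endosomes and lysosomes (chr19:10839727-10859362), had 610 UMIs in tumour and 12 in lymph node. Its level was 36.6 CPM in tumour and 1.12 CPM in lymph node, a ratio of 32.6 (18.5 to 63.4). Slc6a13, a sodium-coupled carrier of GABA and taurine (chr6:121300227-121337733), had 113 UMIs in tumour and 2 in lymph node, a ratio of 36.2 (9.79 to 303) that rests on those 2. Both stood far apart between tissues with few lymph node counts. Macrophages are also known to use Slc15a3. In the 950 tumour cells and 2179 lymph node cells with no UMI of the melanoma or macrophage markers the log2 ratio of Slc15a3 was 5.22, against 5.03 over all cells, and that of Slc6a13 was 5.23, against 5.18. In the cells with a Foxp3 UMI the log2 ratios were 3.34 for Slc15a3 and 3.17 for Slc6a13. Both rest on few lymph node UMIs, of 12 and 2 over all cells, and no interval was computed for them. The related lysosomal carrier Slc15a4 stood at 9.96 CPM in tumour and 7.30 CPM in lymph node.

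The carriers of glutamine differed little. Slc1a5 stood at 85 CPM in tumour and 69.5 CPM in lymph node, a ratio of 1.22 (1.12 to 1.34). Slc38a1 stood at 31.7 and 33.7 CPM, and Slc38a2 at 41.5 CPM in tumour and 52.4 CPM in lymph node, a ratio of 0.79 (0.71 to 0.89). Slc7a1, which brings in arginine and lysine, stood at 13.9 CPM in tumour and 10.9 CPM in lymph node (1.01 to 1.59 for the ratio). The taurine carrier Slc6a6 was at 25.5 CPM in tumour and 34.1 CPM in lymph node. Slc38a6 had only 42 UMIs in tumour and 54 in lymph node and was 2.01-fold lower in tumour (1.32 to 3.08), at the edge of the 2-fold limit.

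The 13 carriers of sugars, monocarboxylates and other carbon compounds held 4 members at least 2-fold higher in tumour and none at least 2-fold lower, with a median log2 ratio of 0.31 that was 1.11 over the members with at least 200 UMIs and 0.13 in cells with a Foxp3 UMI. Slc37a2, which exchanges glucose 6-phosphate for phosphate in the endoplasmic reticulum, had 99 UMIs in tumour and 10 in lymph node, a ratio of 6.34 (3.31 to 13.6). Slc37a4, which brings glucose 6-phosphate into the same compartment, stood at 15.8 CPM in tumour and 4.87 CPM in lymph node, a ratio of 3.24 (2.40 to 4.45). The family was split, since Slc37a1 stood at 5.04 CPM in tumour and 8.61 CPM in lymph node and Slc37a3 at 9.84 and 8.14 CPM. Slc2a8, an intracellular hexose carrier, stood at 16.8 CPM in tumour and 3.75 CPM in lymph node, a ratio of 4.49 (3.21 to 6.41).

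Slc16a6, of the monocarboxylate carrier family, stood at 34.8 CPM in tumour and 9.46 CPM in lymph node, a ratio of 3.68 (2.97 to 4.59). Its exons overlap those of Amz2 and Arsg on the other strand, at 40.5 and 0.60 CPM in tumour and 30.8 and 1.22 CPM in lymph node. The lactate carrier Slc16a1 stood at 12 CPM in tumour and 8.33 CPM in lymph node (ratio 1.44, 1.12 to 1.87), and its log2 ratio of 0.53 was -0.28 without mitotic cells. The chaperone of that carrier, Bsg, which is no solute carrier, stood at 385 CPM in tumour and 153 CPM in lymph node. Slc50a1, a glucose carrier of the SWEET family and the most abundant of the class, was at 93.7 CPM in tumour and 116 CPM in lymph node (ratio 0.81, 0.75 to 0.87).

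**Figure D3:**
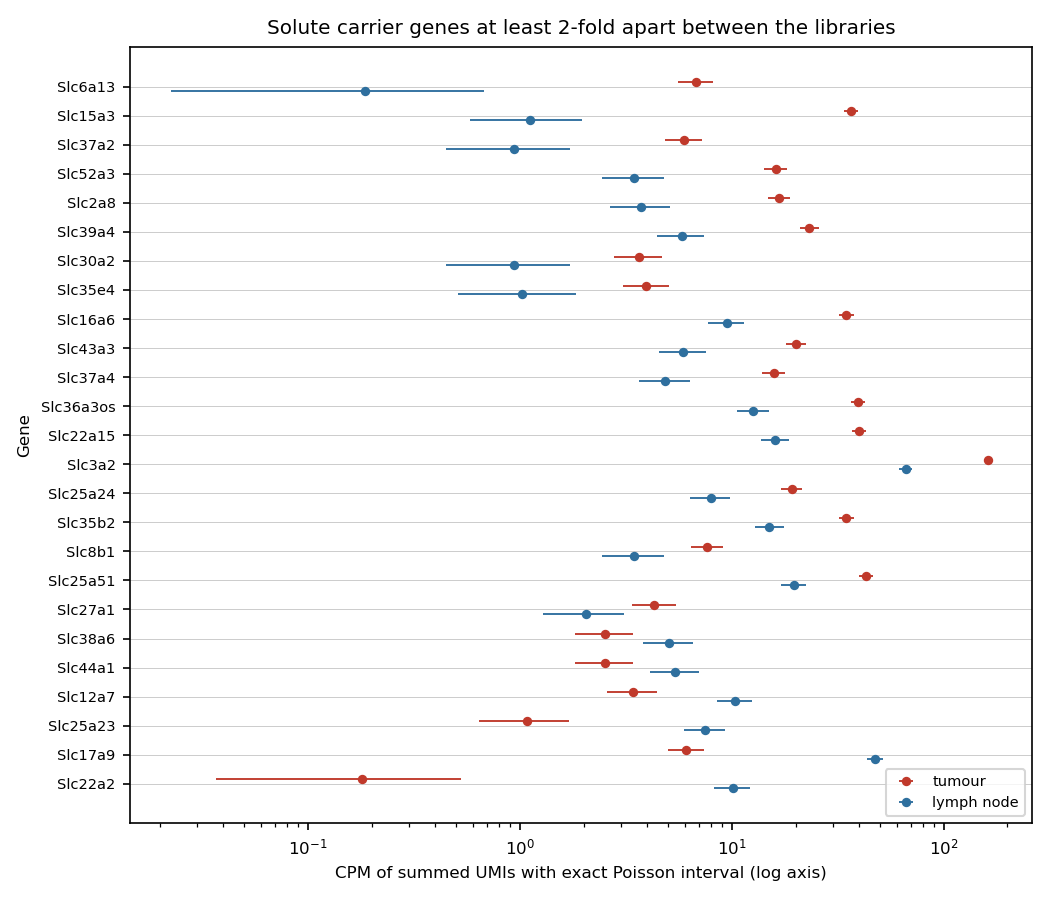
Levels (CPM, log axis) in tumour and lymph node cells of 25 of the 26 members at least 2-fold apart, with 95% Poisson intervals. The tumour points of 19 genes lie to the right, from Slc27a1 (2.10-fold) to Slc6a13 (36.2-fold), and those of 6 genes to the left.

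Carriers of nucleosides, nucleobases and nucleotide sugars numbered 24, of which 3 stood at least 2-fold higher in tumour, 1 lower, with a median log2 ratio of 0.09 and sums of 385 CPM in tumour and 375 CPM in lymph node. Slc17a9, which loads ATP and other nucleotides into secretory vesicles and lysosomes (chr2:180725263-180742280), had 102 UMIs in tumour and 505 in lymph node. Its level was 6.12 CPM in tumour and 47.3 CPM in lymph node, 7.73-fold lower in tumour (6.23 to 9.65). At equal depth 1.30% of tumour cells and 8.36% of lymph node cells held a UMI. In free RNA it stood at 2.56 CPM in tumour and 19.98 CPM in lymph node. Slc17a9 was the most abundant of the class in lymph node, and its log2 ratio of -2.95 ranged from -3.05 to -2.39 over the alternative cell sets and scalings.

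Slc43a3, which takes up purine nucleobases, stood at 20.2 CPM in tumour and 5.90 CPM in lymph node, a ratio of 3.42 (2.60 to 4.55), and its log2 ratio of 1.77 was 1.44 without mitotic cells. Slc35b2, which brings the sulphate donor PAPS into the Golgi apparatus, stood at 34.7 CPM in tumour and 15.1 CPM in lymph node, a ratio of 2.30 (1.93 to 2.76). Slc35e4, a family member without a known substrate, had 66 UMIs in tumour and 11 in lymph node (3.85-fold, 2.02 to 8.07). The nucleoside carriers at the plasma membrane lay close together: Slc29a1 stood at 35.2 CPM in tumour and 35.4 CPM in lymph node, with a ratio of 0.995 (0.873 to 1.14). Slc28a2 was at 19.8 and 25.2 CPM.

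The 22 carriers of metals and heme held 2 members at least 2-fold higher in tumour, none lower and a median log2 ratio of 0.28. Slc39a4, a zinc importer, stood at 23.3 CPM in tumour and 5.80 CPM in lymph node, a ratio of 4.01 (3.06 to 5.33). Slc30a2, which moves zinc out of the cytosol into vesicles, had 61 UMIs in tumour and 10 in lymph node, a ratio of 3.91 (1.99 to 8.56). As families the zinc carriers differed less: the 10 measured Slc39 importers summed to 142 CPM in tumour and 109 CPM in lymph node, a ratio of 1.30 (1.21 to 1.40), and the 6 measured Slc30 carriers to 63.5 and 63.2 CPM. These sums, like the other family sums given here, were chosen after the values were seen. The copper importer Slc31a1 stood at 15.5 CPM in tumour and 8.14 CPM in lymph node (1.91-fold, 1.49 to 2.46), and Slc48a1, which moves heme out of endosomes and lysosomes, at 39.8 and 26.3 CPM (1.51-fold, 1.31 to 1.74). Slc11a2, the endosomal iron carrier, stood at 9.18 CPM in tumour and 8.33 CPM in lymph node, and Tfrc, the transferrin receptor that delivers iron to that compartment, at 23.5 and 6.37 CPM.

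For inorganic ions and pH, 1 of 18 members was at least 2-fold higher in tumour and 1 lower, and the median log2 ratio was -0.10 (0.02 with cells thinned to equal depth). Slc8b1, which exchanges sodium for calcium across the inner mitochondrial membrane, stood at 7.68 CPM in tumour and 3.46 CPM in lymph node, a ratio of 2.22 (1.53 to 3.29). Slc12a7, a potassium-chloride cotransporter, had 57 UMIs in tumour and 111 in lymph node and was 3.04-fold lower in tumour (2.19 to 4.26). Its relative Slc12a4 stood at 5.40 CPM in tumour and 2.81 CPM in lymph node, so these relatives lay on both sides of equality. The phosphate importer Slc20a1 and the sodium-potassium-chloride cotransporter Slc12a2 both lay within 2-fold, at 16.6 and 2.94 CPM in tumour and 13.1 and 3.28 CPM in lymph node. Of the sodium-proton exchangers of organelles, Slc9a9 stood at 8.88 CPM in tumour and 14.4 CPM in lymph node, Slc9a7 at 2.04 and 3.84 CPM and Slc9a8 at 12 and 15.7 CPM, and the intervals of these 3 ratios lay below equality.

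The 16 carriers of lipids, vitamins and organic ions held 3 members at least 2-fold higher in tumour, 2 lower and a median log2 ratio of -0.14 (0.09 without mitotic cells). Slc22a2, an organic cation carrier best known from kidney (chr17:12584132-12628488), had 3 UMIs in tumour and 108 in lymph node. It was 56.2-fold lower in tumour (18.7 to 277), a ratio that rests on those 3, with a log2 ratio of -5.81. With cells thinned to equal depth the log2 ratio was -2.95. In thinned sums a gene without a UMI in a library was set to 3 UMIs there, so -2.95 may reflect that setting. Slc22a15, of the same family, went the other way, at 39.9 CPM in tumour and 16 CPM in lymph node (2.49-fold, 2.10 to 2.96). Slc52a3, a riboflavin importer, stood at 16.1 CPM in tumour and 3.46 CPM in lymph node, a ratio of 4.66 (3.29 to 6.76), while the other riboflavin importer Slc52a2 stood at 18.1 and 20.7 CPM. The riboflavin pair summed to 34.3 CPM in tumour and 24.2 CPM in lymph node. Slc44a1, a choline carrier, stood at 2.52 CPM in tumour and 5.43 CPM in lymph node (2.15-fold lower, 1.42 to 3.29), and the more abundant Slc44a2 at 35 and 56.5 CPM. Slc27a1, a fatty acid importer, had 72 UMIs in tumour and 22 in lymph node (2.10-fold, 1.29 to 3.55). Its log2 ratio of 1.07 was -0.42 in the cells with a Foxp3 UMI. The latter value rests on part of these UMIs, and no interval was computed for it. Folate enters through Slc19a1, at 13.3 CPM in tumour and 15.8 CPM in lymph node.

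The 34 mitochondrial carriers held more transcripts than any other class, 2257 CPM in tumour and 1668 CPM in lymph node. A ratio above 1 was found for 25 of them and for 94 of all 150 members, while the median log2 ratio over all genes was 0.14. The share of all genes with a ratio above 1 was not computed, so these counts do not set carriers apart from genes at large. At least 2-fold higher in tumour were 3, at least 2-fold lower 1, and the median log2 ratio was 0.26. Slc25a5 stood at 877 CPM in tumour and 646 CPM in lymph node (1.36-fold, 1.32 to 1.40), Slc25a3 at 585 and 423 CPM (1.38-fold, 1.33 to 1.43) and Slc25a4 at 262 and 185 CPM (1.42-fold, 1.34 to 1.5). Without mitotic cells the log2 ratio of Slc25a5 was 0.06, against 0.44 over all cells, while that of Slc25a3 was 0.47 in both. A carrier of the cofactor NAD stood further apart than these abundant ones. Slc25a51, which brings in NAD, stood at 43.1 CPM in tumour and 19.7 CPM in lymph node (2.19-fold, 1.88 to 2.57).

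A pair of near relatives, both calcium-regulated exchangers of ATP-Mg for phosphate, differed in opposite directions. Slc25a24 had 320 UMIs in tumour and 85 in lymph node, a ratio of 2.41 (1.89 to 3.10). Slc25a23 had 18 UMIs in tumour and 80 in lymph node and was 6.94-fold lower in tumour (4.12 to 12.3). With the third relative, Slc25a25, at 8.4 CPM in tumour and 7.86 CPM in lymph node, the 3 summed to 28.7 and 23.3 CPM. The citrate exporter Slc25a1 was at 16.3 CPM in tumour and 8.24 CPM in lymph node, a ratio of 1.97 (1.55 to 2.54) just inside the 2-fold limit.

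Symbols that name no transporter of their own were kept apart. Slc9a3r1, a scaffold protein that binds membrane proteins to the actin cortex, was among the 5 most abundant members, at 247 CPM in tumour and 225 CPM in lymph node. Slc36a3os, a transcript named as opposite to Slc36a3, stood at 39.6 CPM in tumour and 12.6 CPM in lymph node (3.13-fold, 2.60 to 3.80), and Slc36a3 itself had 20 UMIs in tumour and 5 in lymph node.

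Clusters made within each library without any Slc gene showed how members vary among cells. In tumour, T1 held 431 cells led by Lag3, Ccl5 and Ccl3, T2 held 379 led by Ifit1, Ifit3 and Gzmb, T3 held 288 led by mitotic genes, T4 held 214 led by Ung, Srm and Mcm2, and T5 held 145 led by Klf2, Tcf7 and Ccr7. In lymph node, L1 held 686 cells led by Ccl5, Nkg7 and Penk, L2 held 551 led by Bcl2 and Socs2, L3 held 537 led by Ly6c1 and Satb1, L4 held 228 led by Eno3 and Gsta4, L5 held 146 led by Ifit1 and Ifit3, and L6 held 54 led by mitotic genes. Cells of a cluster share a library, and the values that follow are descriptions with counting intervals.

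Slc7a5 was uneven in tumour, at 26.6 CPM in T4 (21.6 to 32.5) and 15.5 CPM in T3, against 2.68 CPM in T1 and 2.23 CPM in T2 (0.819 to 4.86). In lymph node it stood at 24.9 CPM in L6, 20.5 CPM in L4 and 7.0 CPM in L1. Slc16a1 had a like pattern, with 27.2 CPM in T4 and 2.60 CPM in T2. So did Slc7a1, at 21.4 and 4.09 CPM in those clusters, and Slc19a1, at 28 and 5.95 CPM. The CD98 heavy chain did not share it: Slc3a2 was highest in T2 at 200.4 CPM and lowest in T4 at 134 CPM, and each tumour cluster lay above each lymph node cluster, of which L1 at 79.7 CPM was highest.

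Slc15a3 was found in every tumour cluster, from 49.3 CPM in T1 down to 15.9 CPM in T5, and in lymph node it had 6 UMIs in L1, 5 in L6 and 1 in L5. Slc22a15 was uneven in lymph node, at 34.1 CPM in L1 and 35.7 CPM in L6 against 2.84 CPM in L2, and in tumour it was highest in T1 at 57.4 CPM. Slc17a9 went the other way, at 77.8 CPM in L2 and 15.2 CPM in L6, and in tumour it was highest in T5 at 18.1 CPM. Of the 108 Slc22a2 UMIs in lymph node, 44 fell in L4, where its level was 29.1 CPM.

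**Figure D4:**
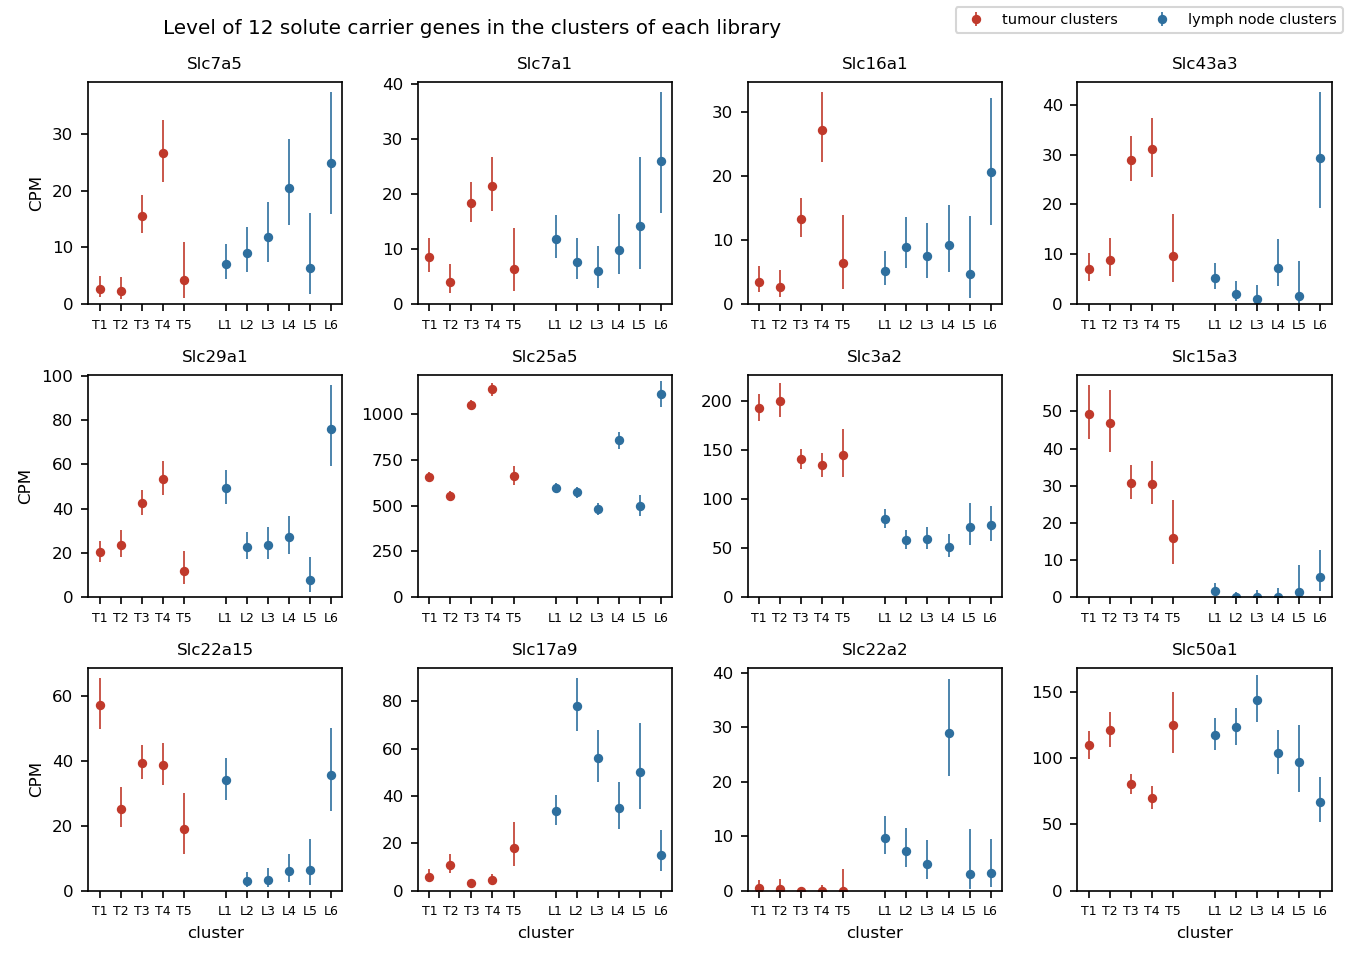
Levels (CPM) of 12 members in tumour clusters T1 to T5 and lymph node clusters L1 to L6, with 95% Poisson intervals. Among tumour clusters Slc7a5 and Slc16a1 peak in T4, Slc3a2 is higher in every tumour cluster than in any lymph node cluster, and Slc17a9 peaks in L2 (77.8 CPM).

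Cells with at least 3 UMIs of the mitotic markers numbered 612 of 1457 in tumour and 78 of 2202 in lymph node, a split that favours deep cells. In tumour, 8 of 135 members with at least 50 UMIs were at least 2-fold higher in mitotic cells and 6 lower, with a median log2 ratio of -0.13. In lymph node these were 14 and 11 of 119 members, with a median of 0.09. The shares of all genes past 2-fold in this split were not computed, so these counts do not set members apart from genes at large. In tumour, Slc25a10, the dicarboxylate carrier, stood at 11.9 CPM in mitotic cells and 2.92 CPM in the others, a ratio of 4.07 (2.47 to 7.08). Slc7a5 stood at 16.9 and 4.39 CPM (3.86-fold, 2.57 to 6.02) and Slc43a3 at 26.7 and 8.94 CPM (2.99-fold, 2.23 to 4.07). In lymph node, Slc43a3 stood at 25.7 CPM in mitotic cells and 3.28 CPM in the others, a ratio of 7.83 (4.63 to 13.3). Slc25a10 stood there at 12.9 and 3.5 CPM and Slc7a5 at 27.3 and 9.64 CPM. Slc16a1 and Slc7a1 were also higher in mitotic cells of both tissues, at 2.76-fold and 2.56-fold in tumour and 2.80-fold and 2.39-fold in lymph node. Slc17a9 was lower in both, at 0.41 of its level in other cells in tumour and 0.36 in lymph node. The mitochondrial carriers together stood at 2422 CPM in mitotic and 1945 CPM in other tumour cells, and at 2480 and 1536 CPM in lymph node. How far the larger number of mitotic cells enters the tumour to lymph node ratios was not tested beyond the values without these cells.

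A list of 32 partner and amino acid response genes held 31 with at least 50 UMIs. Of these, 4 were at least 2-fold higher in tumour, 1 lower and 26 between, with a median log2 ratio of 0.16. Of all 9976 genes with at least 50 UMIs, 13.2% were higher and 7.70% lower, with a median of 0.14. The share of higher genes in the list was thus near that of genes at large. Higher in the list were Asns, which makes asparagine (9.30 CPM in tumour, 1.59 in lymph node), the calcium pump Atp2b4 (42.6 and 10.9 CPM), Tfrc and Bsg. Lower was Atp1b1, a sodium pump subunit, with 2 UMIs in tumour and 272 in lymph node. Atf4, which drives amino acid response genes, Slc3a2 and Slc7a5 among them, stood at 105 CPM in tumour and 53.8 CPM in lymph node (1.94-fold, 1.77 to 2.14). Ddit3, a stress response factor, stood at 25.6 CPM in tumour and 31.5 CPM in lymph node, a ratio of 0.81 with a counting interval of 0.70 to 0.94. Gclc, an enzyme of glutathione synthesis, stood at 8.52 CPM in tumour and 12.3 CPM in lymph node (0.69, 0.54 to 0.89). Trib3 had 28 UMIs in tumour and 25 in lymph node, a ratio of 0.72 whose interval of 0.40 to 1.28 includes equality.

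Barcodes with 1 to 100 UMIs, which hold RNA released from cells, gave a measure of free RNA: 3911381 UMIs in tumour and 2702359 in lymph node. Over the 138 members with at least 10 such UMIs in tumour, the median ratio of free RNA over cells was 1.03, with a range of 0.39 to 6.08. By contrast the melanoma marker Tyrp1 stood at 376 CPM in free RNA and 10.1 CPM in cells of the tumour, so cells held 2.70% of its free level. Slc24a5, an ion exchanger of melanosomes, was the member furthest from the others, at 47 CPM in free RNA and 7.74 CPM in cells of tumour, against 5.55 and 5.80 CPM in lymph node. Its exons overlap those of Myef2 on the other strand, at 17.5 CPM in tumour cells and 13 CPM in lymph node cells. Slc15a3 stood at 29.1 CPM in free RNA and 36.6 CPM in cells of the tumour, and Slc6a13 at 6.65 and 6.78 CPM.

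**Figure D5:**
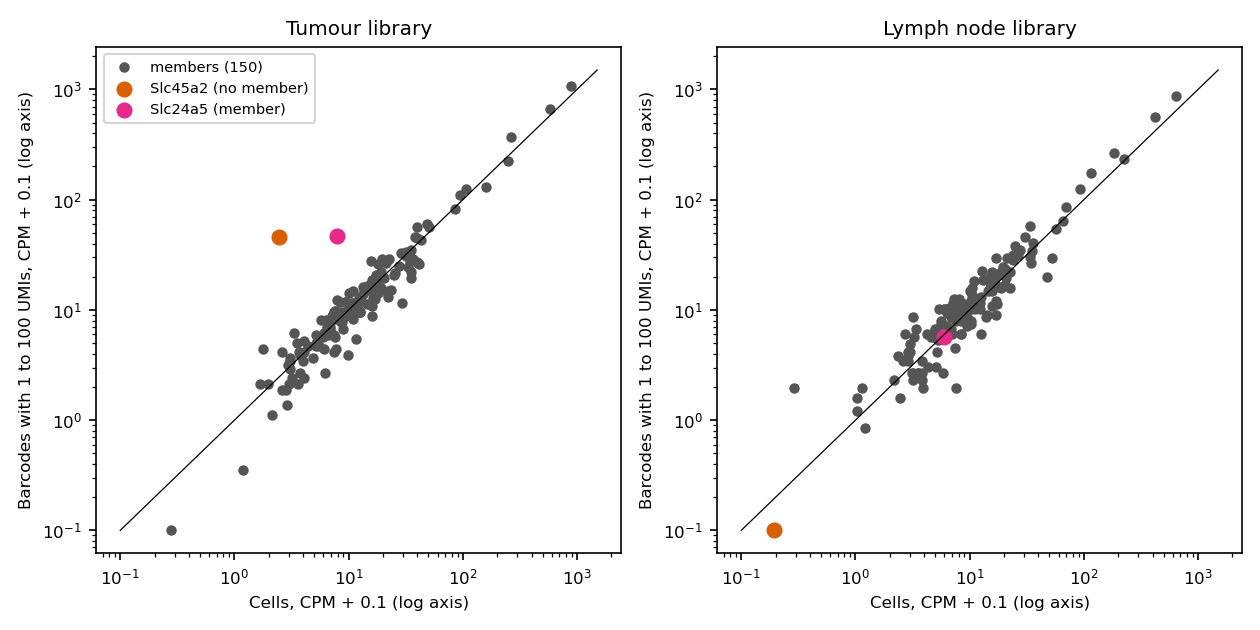
Level of each member, and of Slc45a2 (no member), in free RNA (vertical) and in cells (horizontal) of each library (CPM plus 0.1, log axes). Most lie near the line of equality, while in tumour Slc24a5 (47 and 7.74 CPM) and Slc45a2 (45.5 and 2.34 CPM) lie above it.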

How the data were processed

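Cells sorted from Foxp3Cre-YFP mice were profiled in 1 tumour and 1 lymph node library. For each library the authors deposited 1 unfiltered matrix of UMI counts, whole and not scaled, over 27998 genes listed with identifier and symbol. Per the submitters' processing notes Cell Ranger and the mm10 build were used; the version, the annotation and any use of strand in counting are not stated in the sources used here. Library totals were 23618037 UMIs in tumour and 14000036 in lymph node.

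A barcode was kept as a cell with at least 3834 (tumour) or 1811 (lymph node) UMIs, at least 200 genes, at most 10% mitochondrial UMIs, fewer than 20 UMIs of Pmel, Dct and Mlana together, fewer than 3 of C1qa, C1qb and Lyz2, and fewer than 2 of Cd79a and Ms4a1. Of 1489 tumour and 2226 lymph node barcodes past the UMI minimum, 1457 and 2202 were kept. Doublets were kept and no caller was run. Members have at least 50 UMIs over both libraries, and a call needs a ratio of at least 2-fold. The members, substrate classes, gene lists and alternatives were chosen with earlier results of these data known.

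Raw counts were summed over cells and scaled to CPM. Sums carry exact Poisson intervals, ratios the exact conditional-binomial interval and shares the Clopper-Pearson interval, all at 95%; they cover counting error only and treat UMIs as independent. With 1 library per group no p-value was computed. Substrate classes follow the family number in the symbol, except that Slc43a3 and Slc17a9 were placed with the nucleoside carriers and symbols that name no transporter were kept apart. Named genes are a fixed list of 18 T cell and housekeeping carriers where they are members, up to 4 members per class each way among those at least 2-fold apart, ranked by the interval bound nearest to equality, and the 5 members highest in each library. Clusters used 2000 variable genes, 30 principal components, 15 neighbours and Leiden resolution 0.6, with every Slc gene left out. For shares of cells, each cell was thinned at random to 1811 UMIs. In the alternatives based on sums, a gene without a UMI in a library was set to 3 UMIs there. Coordinates are of GENCODE M21 on GRCm38 and promoters of RefSeq on GRCm38.p6. Values of some members are not reported here. The ratio interval, the 2-fold calls and the thinning were tested on simulated Poisson counts without added variation between cells or libraries. The other steps were not tested in this way. Tools were numpy 2.4.6, scipy 1.17.1, pandas 2.3.3, scanpy 1.11.5, igraph 0.11.9, matplotlib 3.10.9, R 4.3.3 and edgeR 4.0.16, the last only for its TMM scaling factors. Alternatives were TMM scaling, equal weight per cell, cells thinned to equal depth, leaving out mitotic cells (at least 3 UMIs of 15 markers), leaving out the 5% of cells with most UMIs, only cells with a Foxp3 UMI, subtraction of 5% free RNA, a minimum of 200 UMIs and no minimum; leaving out cells with a melanoma or macrophage marker UMI and leaving out the barcode found in both libraries were added after seeing the data.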

Additional observations from a re-analysis of the deposited data

Results flagged for a closer look

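Slc45a2 and Slc24a5, both known from the melanosomes of pigment cells, stood out in barcodes with 1 to 100 UMIs, which the comparison of cells does not use. Slc45a2, which is no member because its cells held 39 UMIs in tumour and 1 in lymph node, stood at 45.5 CPM (interval 39.1 to 52.7) in these barcodes of the tumour library, from 178 UMIs, and had no UMI in those of the lymph node library. Slc24a5 stood at 47 CPM (40.5 to 54.4) in these barcodes of the tumour library, from 184 UMIs, against 5.55 CPM from 15 UMIs in lymph node, a ratio of 8.47 (5.01 to 15.5). Both were looked at because, with whole intervals beyond 2-fold, they lay above the same barcodes of lymph node and above tumour cells. The melanoma markers together stood at 1201 CPM in the same tumour barcodes. Their part in the Slc24a5 level of tumour cells, 7.74 CPM, was not tested.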

How the results depend on the processing

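The count of members at least 2-fold higher in tumour was 20, and 19 to 27 in the alternatives that kept the 150 members, against 5 to 12 lower (6 over all cells). It moved by over 1.5 times with no minimum count (31 higher, 26 lower, of 198 genes), and the lower count moved to 1 with at least 200 UMIs (96 genes) and to 12 in the 244 tumour and 211 lymph node cells with a Foxp3 UMI. The first 2 change which genes are counted, and the cause of the third was not tested. Over all settings, 11.8% to 15.8% of all genes past the count minimum were higher and 4.70% to 12.8% lower. With no minimum 15.7% of members were higher and 13.1% lower, against 15.5% and 12.8% of all genes. With at least 200 UMIs 1.04% of members were lower, against 4.70% of all genes. In cells with a Foxp3 UMI 18% of members were higher and 8% lower, against 13.3% and 9.98% of all genes. The median log2 ratio ranged from 0.07 to 0.26 over members and from 0.04 to 0.18 over all genes. In cells with a Foxp3 UMI it was 0.07 over members and 0.13 over all genes, the reverse of the order over all cells. Slc27a1 turned to -0.415 in the cells with a Foxp3 UMI, which held 2978354 UMIs in tumour and 1218420 in lymph node. No intervals were computed for these cells, and thin members rest on few counts there. Those cells also brought Slc16a6 to 0.81, Slc39a4 to 0.64, Slc25a51 to 0.71, Slc8b1 to 0.36 and Slc44a1 to -0.29, while thinning to equal depth brought Slc12a7 to -0.96 and leaving out mitotic cells brought Slc38a6 to -0.35. TMM scaling shifted every log2 ratio by -0.0987. Class medians ranged over the alternatives from -0.10 (without mitotic cells) to 0.52 for amino acids, 0.13 to 1.11 (at least 200 UMIs) for sugars, -0.01 to 0.16 for nucleosides, 0.15 to 0.46 for metals, -0.27 to 0.02 (thinned) for inorganic ions, -0.29 to 0.145 (at least 200 UMIs) for lipids, 0.15 to 0.31 for mitochondrial carriers and -0.09 (thinned) to 0.30 for symbols that name no transporter. Under the 9 alternatives that recompute ratios, 326 log2 ratios of named genes stayed within the counting interval of the value over all cells and 70 did not. No paired analysis was possible because each group is 1 library and the labels give no replicate numbers. Depth limits the thin members: 71 stood under 10 CPM in tumour and 80 in lymph node.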
